A study of Mus musculus with 3 samples.

Results

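Stroma3 is a small cluster of non-immune stromal cells that the depositors separated in mouse melanomas profiled by droplet-based single-cell RNA-seq. Its members were taken by name, as every cell whose deposited cluster label is Stroma3, which gave 220 of 12670 cells. The cells came from 3 tumors, with 1 tumor per group: 120 cells from the untreated tumor, 12 from the tumor that had regressed under vemurafenib, and 88 from the tumor that progressed during treatment with this drug, which blocks mutant Braf kinase. The tumors were autochthonous melanomas of C57BL/6 mice that carried an inducible mutant Braf allele and the Tyr.CreER transgene among their engineered alleles, with or without a Rosa26 LSL.tdTomato reporter, and were started by 4-OH tamoxifen on the flank skin. The melanocyte-specific Tyr promoter drives the Cre, so recombination is directed to the pigment cell lineage and not to the fibroblasts described here. The study's methods give an age range at tumor induction and enrolled both sexes, for the cohort as a whole. No label or text used here ties an age, a sex or one of these genotypes to each of the 3 tumors. The counts of sex-linked transcripts and of transgene sequences are given below. With 1 tumor per group there is no biological replicate, no test was possible, and treatment cannot be told apart from the tumor, the animal or the library. Values are therefore descriptions of these 3 libraries.

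Fibroblasts of the skin build the extracellular matrix. They differ by layer (papillary and reticular dermis) and by the structure they belong to, and those at the base and around the sheath of the hair follicle signal to the epithelium through Wnt and BMP ligands and their antagonists. In tumors, fibroblasts can become contractile, with smooth-muscle actin fibres, and can lay down collagens, elastic fibres and matricellular proteins, which sit in the matrix and modulate how cells respond to it. Lrrc15, the leading marker of Stroma3, encodes a membrane protein with leucine-rich repeats that is known from matrix-producing fibroblasts of tumors.

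Stroma3 made up 4.57% of the 2628 Stroma cells of the untreated tumor (95% interval 3.80 to 5.44, exact Clopper-Pearson), 0.626% of 1918 in the regressed tumor (0.324 to 1.09) and 2.57% of 3422 in the progressed tumor (2.07 to 3.16). Intervals here and below cover counting error only. In the regressed tumor 1537 of the Stroma cells were in a cluster named Stroma10, and without it the share of Stroma3 was 3.15%. The count tables held 675229, 36956 and 551484 unique molecular identifiers (UMIs, 1 per captured RNA molecule) in the Stroma3 cells of the untreated, regressed and progressed tumor. Median depth was 4768.5 UMIs per Stroma3 cell in the untreated tumor and 4905.5 in the progressed tumor, beside 4648.5 and 4367.5 in the other Stroma cells. The 12 regressed cells were shallower (median 2654.5 UMIs), and their values carry wide intervals, so gene by gene they are given as levels only. Levels are UMIs of a gene per 1000000 UMIs (CPM) of the summed cells of a cluster in 1 tumor, which do not correct for gene length and do not need to in libraries that count transcript ends.

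The libraries differed in ways that touch the results below. Xist was at 1896 CPM in the untreated, 0 in the regressed and 1737 CPM in the progressed Stroma3 cells, while Y-linked transcripts stood at 0, 189 and 0 CPM, so the regressed tumor differed from the other two in these sex-linked transcripts. The transgene sequences, counted as tdTomato and tWPRE, were detected in all 3 libraries. They stood at 37.0, 27.1 (1 UMI) and 19.9 CPM in Stroma3, and at 40.5, 36.8 and 43.1 CPM in the other Stroma clusters. Haemoglobin transcripts stood at 41.5, 1624 and 1.81 CPM. The other 9 Stroma clusters were also not the same mixture in each tumor. From untreated to progressed, Stroma1 went from 472 cells to 0 and Stroma2 from 1144 to 26, while Stroma6 went from 83 to 1255 and Stroma7 from 18 to 444. A level of the pooled other clusters therefore differs between tumors partly by which cells are pooled, and values by single cluster are given where a result turns on them.

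The cells held the transcripts of fibroblasts. Col1a1, Col1a2 and Col3a1, the chains of fibrillar collagens I and III, were detected in 118, 119 and 120 of the 120 untreated cells, in all 12 regressed cells, and in 86, 88 and 88 of the 88 progressed cells. The sum of 10 fibroblast identity genes was 47927, 54443 and 54424 CPM in the Stroma3 cells of the untreated, regressed and progressed tumor, and 48128, 40558 and 47947 CPM in the other Stroma clusters. Among those 10 genes only Thy1, a surface protein of fibroblasts, stood above the other clusters in both tumors by the fold rule given below (log2 ratio 1.30 untreated, 1.57 progressed). Fap, encoding fibroblast activation protein, was low in Stroma3, with 47.4 CPM (21 of 120 cells) untreated and 30.8 CPM (13 of 88 cells) progressed, against 85.2 and 73.1 CPM in the other clusters.

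Several defining transcripts of other cell types were at or near 0, while some of the lists were not. Dct, Pmel and Mki67 had no UMI in any Stroma3 cell, and the pericyte gene Rgs5 had 1 cell with a UMI in each of the untreated and progressed tumor. The list of 14 melanocyte and Schwann cell features, with Dct, Pmel and the transgene sequences, was not at 0. It summed to 82.9, 81.2 and 87.0 CPM (untreated, regressed, progressed), below the 169, 255 and 217 CPM of the other Stroma clusters. Its largest member was tWPRE, with 33.7% of the list's UMIs in untreated and progressed Stroma3. Ptprc, the pan-leukocyte marker, was detected in 4, 1 and 4 cells (untreated, regressed, progressed), and the endothelial gene Pecam1 in 2, 0 and 0 cells. The 8 endothelial genes summed to 28.1, 27.1 and 10.9 CPM, below the 145, 103 and 73.6 CPM of the other Stroma clusters. The 17 immune genes summed to 932, 1488 and 225 CPM, of which most in the untreated tumor was S100a8 and S100a9, at 382 and 341 CPM. The 10 keratinocyte genes stood at 262, 1272 and 383 CPM, the 10 pericyte and smooth muscle genes at 215, 108 and 143 CPM, and the 8 adipocyte genes, mostly Lpl, at 548, 135 and 294 CPM. The other Stroma clusters held 245, 1265 and 359 CPM, 283, 185 and 221 CPM, and 669, 299 and 293 CPM of the same lists. The part of these transcripts in the results below was not tested. The Stroma3 cells with at least 1 UMI of another cell type's marker numbered 69 of 120, 8 of 12 and 49 of 88.

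All 6 markers of the cluster were far above the pooled other Stroma clusters in the untreated and progressed tumor. In the regressed tumor the levels were also above, but for Coch this rested on 1 UMI in Stroma3 and 1 UMI in the other clusters. Because the clusters were made from these genes, the values describe the cluster and test nothing. Lrrc15 (chr16:30269302-30283254, build GRCm38) was at 344 CPM in the untreated, 406 CPM in the regressed and 263 CPM in the progressed tumor's Stroma3 cells, against 1.72, 1.57 and 1.35 CPM in the other clusters. It was detected in 58 of 120, 6 of 12 and 36 of 88 cells. Mfap4 (chr11:61485431-61488708), a glycoprotein of elastic microfibrils, was at 293, 758 and 919 CPM against 17.5, 17.2 and 20.5 CPM. It was the marker with the most UMIs in the progressed tumor, where 44 of 88 cells held it against 28 of 120 untreated cells. In the regressed tumor 2 of 12 cells held Mfap4, and 27 of its 28 UMIs there were in 1 cell. Adamts18 (chr8:113697123-113849343), a secreted metalloprotease, had the widest separation of the 6 in the untreated tumor, with 126 CPM against 0.373 CPM, and stood at 108 CPM in regressed and 43.5 CPM in progressed cells. Coch (chr12:51593283-51606619), encoding the matrix protein cochlin, was at 91.8, 27.1 and 52.6 CPM and was sparse, with 13, 1 and 8 cells. Dkk2 (chr3:132085266-132180304), a secreted modulator of Wnt signalling, was at 57.8, 406 and 161 CPM. Crabp1 (chr9:54764748-54773110), a cytoplasmic carrier of retinoic acid, was at 28.1, 298 and 377 CPM, and only 5, 3 and 20 cells held it.

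**Figure D1:**
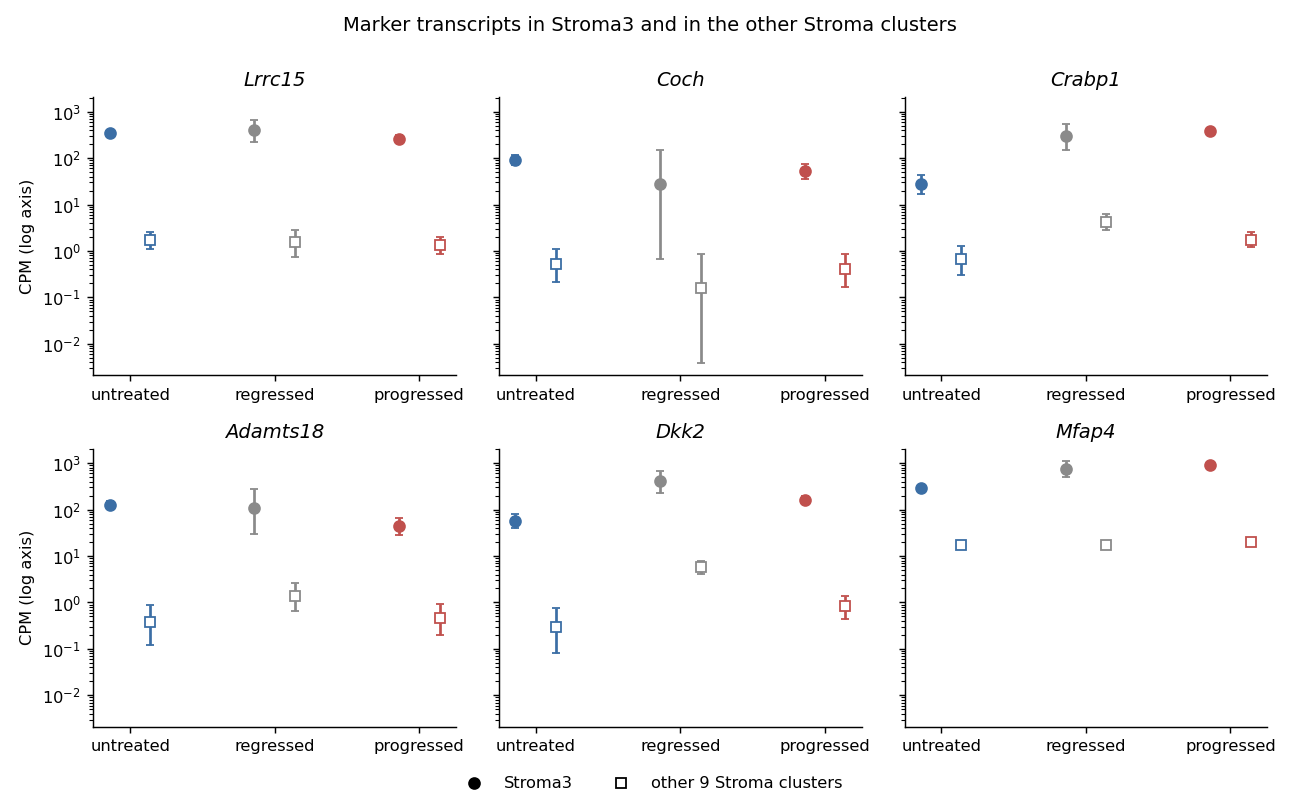
CPM on a log axis of the 6 marker genes in Stroma3 (filled circles) and in the summed other 9 Stroma clusters (open squares) of each tumor, with exact Poisson 95% intervals. In all 6 panels the point of Stroma3 sits above that of the other clusters in each tumor, though the intervals of Coch overlap in the regressed tumor. Crabp1, Dkk2 and Mfap4 are lowest in the untreated tumor.

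No single cell held all 6 markers. At least 1 marker was found in 75 of 120 untreated cells (62.5%), 9 of 12 regressed cells (75%) and 64 of 88 progressed cells (72.7%), and 5 of the 6 were found together in 2, 1 and 2 cells. In the other Stroma cells the share with at least 1 marker was 5.50%, 2.94% and 5.88%, and in NK/T cells, which should lack these genes, it was 0 of 40, 2.10% and 2.44% at median depths of 3380.5, 2737.5 and 3122 UMIs. With each cell thinned to 1000 UMIs, and 3, 2 and 1 shallower Stroma3 cells left out, the shares were 35.9%, 50% and 51.7% in Stroma3 and 1.05%, 1.16% and 1.45% in the other Stroma cells. The remaining Stroma3 cells carried their name without a UMI of these 6 genes.

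The markers did not all fall on the same cells. Of the 58 untreated cells with Lrrc15, 22 also held Mfap4 (37.9%, against 23.3% of all untreated Stroma3 cells), and of the 36 progressed cells with Lrrc15, 27 held Mfap4 (75%, against 50%). Crabp1 and Adamts18 shared 0 cells in either tumor, from 5 and 28 cells untreated and 20 and 11 cells progressed. The product of their shares alone gives 1.17 and 2.5 shared cells, so these counts do not show that the genes exclude each other. Of the 20 progressed cells with Crabp1, 11 held Dkk2 (55.0%, against 33.0%) and 1 held Acta2 (5.0%, against 21.6%). Deeper cells hold more of any gene, and the part of depth in these shares was not tested.

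Among the other clusters with 20 or more cells, the marker sum was next highest in Stroma8, at 468 CPM untreated and 242 CPM progressed, most of it Mfap4, and in Stroma6, at 108 and 54.5 CPM. In the regressed tumor the 18 Stroma8 cells held Mfap4 at 1032 CPM, above the 758 CPM of Stroma3. In each of these clusters 2 cells held it, so both values rest on few cells. Lrrc15 was at 10.5 CPM in untreated and 2.64 CPM in progressed Stroma6 cells. Over genes with 20 or more UMIs in both clusters compared, the log2 CPM profile of Stroma3 had its highest Pearson correlation with that of Stroma6 in both tumors (r 0.928 over 3731 genes untreated and 0.889 over 4446 genes progressed). By Spearman's rho Stroma6 was again highest in the progressed tumor (0.862), but in the untreated tumor Stroma2 (0.876 over 5223 genes) was level with Stroma6 (0.872). These correlations are across genes of 1 library, and the clusters compared share that library.

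Set against the other Stroma clusters over all genes, Stroma3 was higher for members of the elastic fibre, matricellular, contractile and hair follicle dermis lists. Single clusters could exceed it, as given below. A gene was counted as past the fold where its log2 ratio was 1 or more (or -1 or less), its exact 95% interval did not hold 0, and both conditions were met in the untreated and in the progressed tumor, over genes with 20 or more UMIs in each. Of 13100 such genes, 268 were higher (2.05%) and 305 lower (2.33%). In the untreated tumor alone 4.06% were higher and 4.94% lower, and in the progressed tumor alone 5.26% and 4.56%. These counts, too, describe a cluster that was defined by its expression.

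The genes with the highest ratios in both tumors were, beside the markers, Syt13, a synaptotagmin, at 69.6 and 76.2 CPM in untreated and progressed Stroma3 against 0.224 and 0.235 CPM elsewhere, and Igfbp2, an insulin-like growth factor binding protein, at 101 and 798 CPM against 0.522 and 1.94 CPM. Bcl11b, a zinc-finger transcription factor, was at 54.8 and 61.7 CPM against 0.597 and 1.64 CPM. Col7a1, the collagen of the anchoring fibrils beneath the epidermis, was at 147 and 243 CPM against 9.77 and 11.8 CPM. The gene a, which encodes agouti, the signal from hair follicle dermis that switches pigment type in melanocytes, was at 85.9 and 109 CPM against 6.12 and 4.81 CPM. Cyp26b1, which degrades retinoic acid, was at 293 and 430 CPM against 47.5 and 50.6 CPM. The others of the 20 were Fam174b, Cox4i2, Hpgd, Lgals3, Ncam1, Ly6c1, Pfn2, Eln, Tagln and Postn. In the regressed tumor's 12 cells Syt13 was at 162 CPM, Col7a1 at 487 CPM and a at 298 CPM, each again above the other regressed Stroma cells (0.783, 6.73 and 6.73 CPM).

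**Figure D2:**
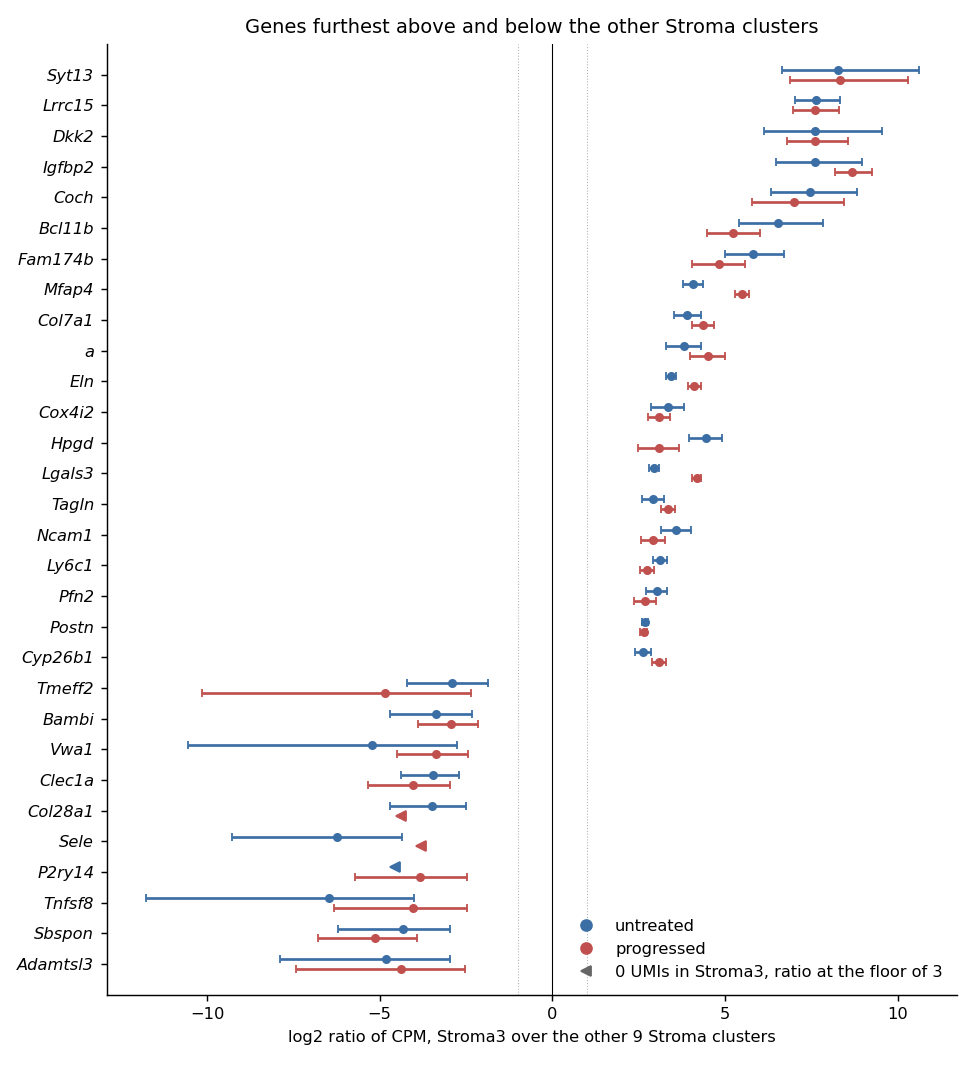
Log2 ratio of CPM in Stroma3 over the other 9 Stroma clusters, with exact 95% intervals, for the 20 genes furthest above and the 10 furthest below in both the untreated (blue) and progressed (red) tumor; triangles mark ratios set against a floor of 3 UMIs. Syt13 lies at 8.28 and 8.34, and Sbspon at -4.33 and -5.15.

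Of 18 elastic fibre genes tested, 6 were higher and 1 was lower. Eln, encoding elastin, was at 791 CPM untreated and 664 CPM progressed against 73.1 and 38.6 CPM in the other clusters, and 79 of 120 and 61 of 88 cells held it. Fbln5, a scaffold for elastin assembly, was at 209 and 172 CPM against 35.1 and 27.1 CPM. Loxl1, which crosslinks elastin, was at 761 and 470 CPM against 326 and 213 CPM. Fbln2 and Ltbp2 were the other higher members beside Mfap4, and Ltbp4 was lower (log2 ratio -1.08 in each tumor). The small cluster Stroma8 held more of the summed elastic fibre genes than Stroma3, 9480 and 8355 CPM against 6635 and 6524 CPM, and in the progressed tumor more Eln (1025 CPM).

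Among 19 matricellular genes tested, 7 were higher and 1 was lower. Postn, encoding periostin, was at 2152 and 1840 CPM against 336 and 294 CPM and was found in 111 of 120 and 72 of 88 cells. In Stroma6 alone it was at 1443 CPM untreated (51 of 83 cells) and 483 CPM progressed. Ccn1 and Ccn2, secreted proteins known as targets of mechanical and TGF-beta signalling, had log2 ratios of 1.61 and 2.06 untreated and 1.78 and 2.16 progressed. Tgfbi, another TGF-beta target, was the lower member, at 181 and 254 CPM against 1322 and 2504 CPM. Of 19 collagen genes tested, 3 were higher, Col6a3, Col11a1 and Col12a1, and the collagen sum was close to that of the other clusters (log2 ratio 0.24 untreated, 0.50 progressed).

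Of 12 contractile genes tested, Acta2, Tagln, Tpm2 and Actg2 were higher and Des was lower. Acta2, smooth-muscle actin, was at 145 CPM untreated (23 of 120 cells) and 343 CPM progressed (19 of 88 cells), against 32.7 and 33.0 CPM in the other clusters. In 1 of the pooled clusters these genes were higher still: untreated Stroma6, with a contractile sum of 3682 CPM against 2127 CPM in Stroma3, held Acta2 at 627 CPM and Tagln at 329 CPM, above Stroma3, and progressed Stroma6 held them at 78.9 and 64.8 CPM. Myh11, the smooth-muscle myosin, had 0 UMIs in Stroma3.

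Of 15 dermal papilla and dermal sheath genes tested, 7 were higher and 0 were lower. They were Alx4, Fgf10, Wif1, Bmp4, Ncam1, Vcan and Prdm1. Wif1, a secreted Wnt inhibitor, was at 151 CPM in each tumor against 39.2 and 4.64 CPM, in 32 of 120 and 16 of 88 cells. Corin and Sox2, further genes known from the dermal papilla, were nearly absent, with 0, 1 and 2 and 0, 1 and 1 cells. Of 9 papillary dermis genes Ntn1, Lrig1 and Trps1 were higher. Of 12 reticular dermis and fascia genes Ly6a, Ly6c1, Pi16 and Cd55 were higher and Mgp was lower. The papillary sum lay above the other clusters (log2 ratio 1.03 untreated and 1.35 progressed) and the reticular sum below (-0.76 and -1.32). The medians of the genes were 0.73 and 0.99 for the papillary list. For the reticular list they were 0.24 and -0.14, so its sum does not describe its typical member. Among 22 fibroblast transcription factors, Twist1, Twist2, En1 and Tbx15 were higher and Sox9, Meox1, Meox2, Foxs1 and Nr2f2 were lower.

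Targets of the MAPK pathway were lower in Stroma3. Of 9 MAPK target genes, Dusp6, Etv4, Phlda1 and Spry2 were lower and 0 were higher, with the sum at 492 and 535 CPM against 1274 and 1611 CPM in the other clusters. Of 14 chemokines, Ccl11, Cxcl1, Cxcl5 and Cxcl16 were lower and Ccl8 was higher. Of 18 genes of the IL-6 family and inflammatory stroma 2 were lower, Il6 and Has1, and 0 higher, with a log2 ratio of the sum of -1.16 untreated and -0.11 progressed. Of 12 MHC class I genes 0 passed in both tumors, with a log2 ratio of the sum of 0.42 untreated and 1.33 progressed. Immediate early genes, which also respond to tissue dissociation, had 3 of 19 lower (Atf3, Ier3 and Socs3). The genes furthest below the other clusters were Adamtsl3, Sbspon, Tnfsf8, P2ry14, Sele, Col28a1, Clec1a, Vwa1, Bambi and Tmeff2. Sbspon was at 5.92 and 9.07 CPM against 119 and 322 CPM.

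The remaining comparison set the 88 progressed against the 120 untreated Stroma3 cells. Among the 7501 genes whose UMIs in both tumors summed to 20 or more, 266 were past the fold as higher in the progressed tumor (3.55%) and 260 as lower (3.47%), and the median log2 ratio of all of them was -0.003. With each cell thinned to 1000 UMIs, 72 genes were higher and 72 lower. In the pooled other Stroma clusters 3.31% of genes were higher and 5.51% lower. Of those 526 genes, 83 were past the fold in the same direction in the other Stroma clusters, and 24 in the opposite direction.

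Of the gene lists in the plot of list sums, MHC class I had the highest ratio. These genes encode the molecules that show peptides of the cell's own proteins to CD8 T cells, and the subunits that cut and load those peptides. Of 12 tested, 8 were higher in the progressed tumor and 0 lower, beside the 3.55% of all genes. The 8 were H2-K1, H2-D1, H2-Q4, H2-Q7, H2-T23, B2m, Psmb8 and Psmb9, while Tap1, Tap2, Tapbp and Psmb10 had log2 ratios of 0.50, 0.18, 0.61 and 0.15. H2-K1, a classical heavy chain, was at 267 CPM in the untreated tumor, 595 CPM in the regressed tumor and 1204 CPM in the progressed tumor, a log2 ratio of 2.18 (1.94 to 2.42) between progressed and untreated. H2-D1, the other classical heavy chain of this strain, was at 335, 1326 and 1646 CPM (2.30, 2.09 to 2.52). B2m, the light chain that all class I molecules share, was at 1596, 1515 and 4764 CPM (1.58, 1.47 to 1.68). H2-D1 was found in 69 of 120 untreated and 76 of 88 progressed cells, so both the share of cells and the level were higher. H2-T23, a non-classical heavy chain, was at 8.89, 135 and 54.4 CPM. H2-Q7 went from 1 UMI (1.48 CPM) to 56.2 CPM in 17 of 88 cells, a log2 ratio of 5.25 with an interval of 2.66 to 10.6. H2-Q9 held the same counts as H2-Q7 in every cell, and the heavy chain genes are near-identical copies, so their reads cannot be assigned to one gene with confidence.

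Promoters of 3 of these genes are shown because H2-K1, H2-D1 and B2m carried most of the class I transcripts. Each runs from 250 bases before to 50 after the start of transcription (RefSeq, build GRCm38.p6, in the direction of transcription), and capitals mark each CCAAT, a common promoter box, on either strand (ATTGG on the other one). H2-K1 spans chr17:34000298-34000597 on the minus strand, H2-D1 chr17:35262844-35263143 on the plus strand and B2m chr2:122147437-122147736 on the plus strand.
H2-K1: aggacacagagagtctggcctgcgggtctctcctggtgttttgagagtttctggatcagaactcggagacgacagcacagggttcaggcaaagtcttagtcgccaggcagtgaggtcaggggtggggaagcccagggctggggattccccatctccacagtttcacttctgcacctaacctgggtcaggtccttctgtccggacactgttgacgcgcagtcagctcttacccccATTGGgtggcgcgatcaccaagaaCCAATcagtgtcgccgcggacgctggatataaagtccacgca
H2-D1: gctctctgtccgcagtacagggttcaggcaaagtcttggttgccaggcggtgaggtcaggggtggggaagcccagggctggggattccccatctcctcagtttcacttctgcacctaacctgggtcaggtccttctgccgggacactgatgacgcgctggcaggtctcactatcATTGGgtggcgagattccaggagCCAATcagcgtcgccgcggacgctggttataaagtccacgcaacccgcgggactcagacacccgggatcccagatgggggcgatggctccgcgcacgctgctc
B2m: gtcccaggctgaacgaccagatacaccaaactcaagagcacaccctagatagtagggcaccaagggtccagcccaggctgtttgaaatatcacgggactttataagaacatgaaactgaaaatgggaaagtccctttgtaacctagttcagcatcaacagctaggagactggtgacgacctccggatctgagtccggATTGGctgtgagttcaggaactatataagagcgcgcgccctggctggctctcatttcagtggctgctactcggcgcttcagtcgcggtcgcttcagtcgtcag
Of the 13 class I genes listed, 11 had a promoter entry and 9 of those held CCAAT. Over all 32851 promoters of the same length 37.4% held it, and the box was chosen after these sequences had been seen. A match is a description of the letters only.

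The class I difference was spread over the cells and was present in other clusters. The summed class I transcripts were at 2684 CPM untreated, 4086 CPM regressed and 8568 CPM progressed in Stroma3, a log2 ratio of 1.67 (1.60 to 1.75) between progressed and untreated. Per cell, the median was 2003 CPM in the untreated tumor (quartiles 1192 and 3397) and 6340 CPM in the progressed tumor (quartiles 3063 and 11091). Of the 88 progressed cells, 61 lay above the upper quartile of the untreated cells, and 3 of the 120 untreated cells lay above the progressed median. In the pooled other Stroma clusters the log2 ratio was 0.77, which is 0.90 less (0.82 to 0.99). By single cluster with 20 or more cells in each tumor, it was 1.64 (Stroma8), 1.16 (Stroma6), 0.50 (Stroma4), 0.37 (Stroma5) and 0.33 (Stroma2). The value of Stroma3 was close to that of Stroma8 and above those of the 4 others. Stroma8 had only 23 untreated and 21 progressed cells, and its highest progressed cell was at 59971 CPM, against an upper quartile of 7171. Its per-cell median went from 3006 to 5606 CPM. The median of Stroma7, with 18 untreated cells, went from 1207 to 2747 CPM. Of 15 interferon-stimulated genes tested, Iigp1 and Gbp2 were past the fold (28.1 to 129 CPM and 17.8 to 49.0 CPM), and the sum of that list had a log2 ratio of 0.20.

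**Figure D3:**
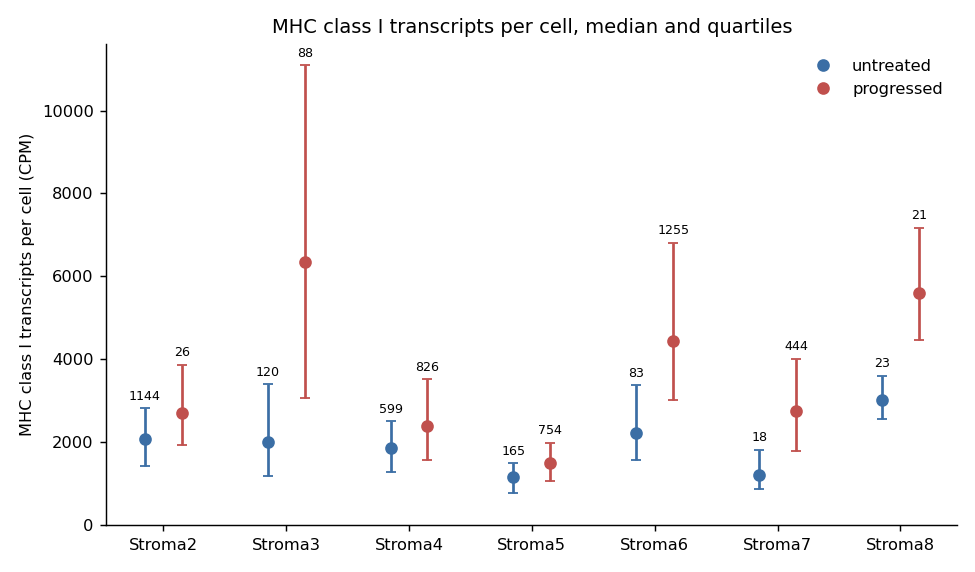
Summed CPM of the MHC class I genes per cell, as median (point) and quartiles (bars), in the untreated (blue) and progressed (red) tumor for the Stroma clusters with cells in both, with the number of cells above each bar. The median of Stroma3 is 2003 untreated and 6340 progressed, and the median of every other cluster shown is also higher in the progressed tumor.

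Signalling genes were the next set of differences, and many of them rested on few cells. Of 16 Wnt ligands, antagonists and targets tested, 9 were higher in the progressed tumor and 0 lower, and the sum went from 597 to 1527 CPM (log2 ratio 1.36) while that of the other clusters was lower (-0.81). Rspo1, a secreted amplifier of Wnt signals, went from 2 to 14 cells and from 2.96 to 43.5 CPM, and Dkk2 from 18 to 29 cells. Rspo3, a related amplifier, had 0 UMIs in the untreated tumor and 55 UMIs in 6 progressed cells, and 1 of those cells held 58.2% of them. Sostdc1, an antagonist of Wnt and BMP, had 0 UMIs and 43 UMIs, of which 41 were in 1 cell. Sfrp2, a secreted frizzled-related protein, went from 56.3 to 410 CPM, with 83.6% of its progressed UMIs in 1 cell and detection in 7 and 9 cells, and its log2 ratio of 2.86 became -0.23 when every cell had equal weight.

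A handful of cells weighed on these values. Of the 61 named genes that were higher in the progressed tumor, 11 had 50% or more of their progressed UMIs in a single cell, and those single cells were 5 in all. The deepest, with 29893 UMIs (6.09 times the median), held all 40 UMIs of Dio3, a deiodinase that inactivates thyroid hormone, 189 of 226 of Sfrp2 and 112 of 172 of Cthrc1. The second, with 25827 UMIs, held 265 of 323 of Tnc, encoding tenascin-C, and 28 of 33 of 1700086L19Rik. The third, with 20960 UMIs, held 140 of 208 of Crabp1 and 269 of 440 of Igfbp2. A cell with 7662 UMIs held 32 of the 55 Rspo3 UMIs, and a cell with 4615 UMIs held 41 of 43 of Sostdc1, 21 of Crabp1 and 18 of Rspo3. The last 2 cells had 2 and 6 UMIs of Col1a1, against a median of 22 (range 0 to 274) in the 83 progressed cells outside these 5, and 11 of all 88 progressed cells had 6 or fewer. Without these 5 cells, an alternative chosen after seeing the data, 238 genes were higher and 242 lower of 7235 tested, the Wnt sum had a log2 ratio of 0.65, and the class I sum had one of 1.83. The sums of the collagen, matricellular, BMP and MAPK target lists changed sign without them, from log2 ratios of 0.15, 0.14, 0.07 and 0.12 to -0.03, -0.12, -0.07 and -0.38. Over all genes the concentration was rarer: 15 of the 266 higher genes had 50% or more of their UMIs in 1 cell, and 221 remained past the fold without their highest cell in each tumor.

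**Figure D4:**
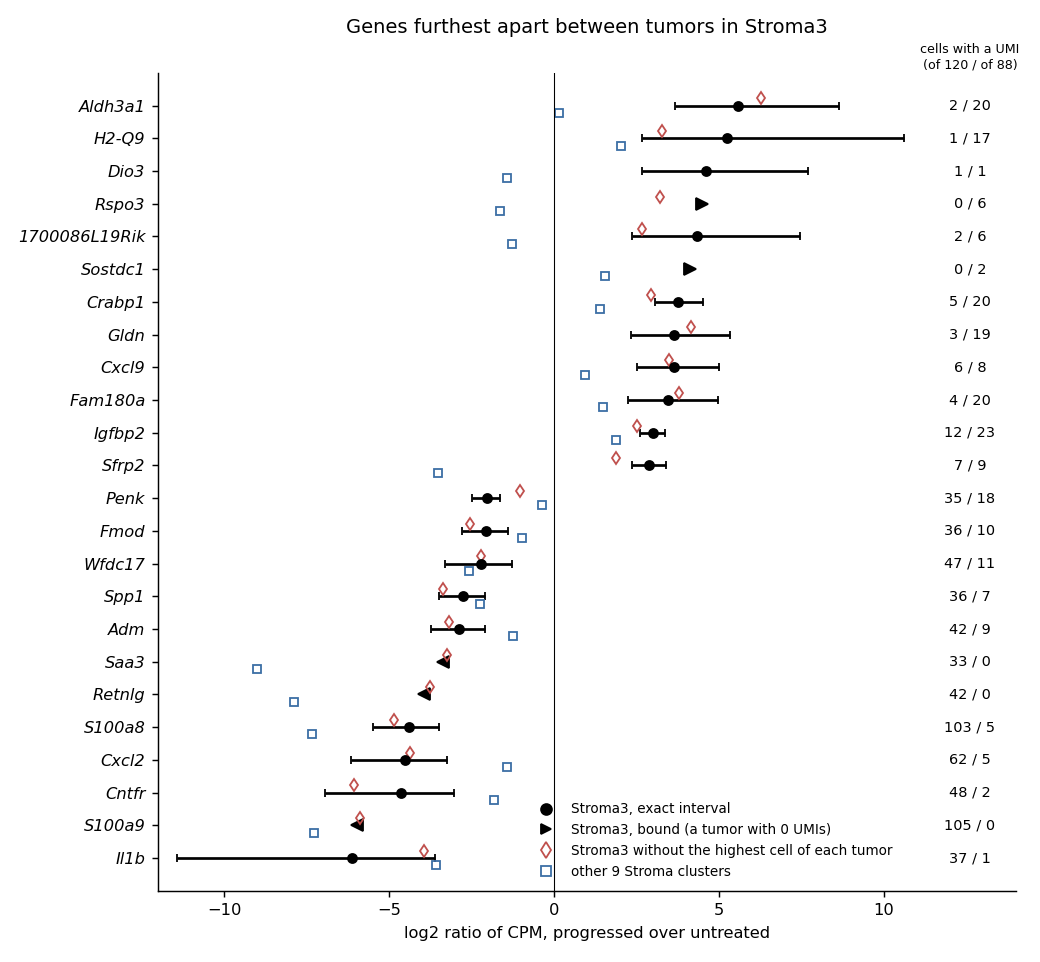
Log2 ratio of CPM, progressed over untreated, in Stroma3 (black, exact 95% interval or bound) for the 12 genes furthest higher and 12 furthest lower, with the value without the highest cell of each tumor (red diamonds) and in the other 9 Stroma clusters (blue squares); numbers at the right are cells with a UMI. Aldh3a1, Gldn and Fam180a were in 20, 19 and 20 progressed cells, whereas Dio3 was in 1 and Sostdc1 in 2.

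Several higher genes were spread over 19 or more of the progressed cells. Aldh3a1, an aldehyde dehydrogenase, went from 2.96 CPM (2 of 120 cells) to 141 CPM (20 of 88 cells), with a log2 ratio of 5.58 (3.68 to 8.65) and 216 CPM in the regressed tumor, all from 1 of 12 cells. Gldn, encoding gliomedin, a matrix-associated adhesion protein, went from 7.4 CPM (3 cells) to 92.5 CPM (19 cells), with 108 CPM in the regressed tumor, and was almost absent from the other Stroma clusters (0 and 0.0587 CPM). Fam180a went from 8.89 CPM (4 cells) to 97.9 CPM (20 cells). In Stroma6 Fam180a was higher as well, with 0 UMIs in 83 untreated cells and 108 UMIs in 85 of 1255 progressed cells (19.0 CPM). These 3 genes fell in part on the same progressed cells. Of the 20 with Aldh3a1, 13 held Gldn (65%, against 21.6% of all progressed Stroma3 cells) and 11 held Fam180a (55%, against 22.7%). The part of depth in these shares was not tested. Crabp1 was in 20 progressed cells, but 1 of them held 67.3% of its UMIs. Without its highest cell in each tumor Crabp1 still had a log2 ratio of 2.94, against 3.74 with it. Less widely spread was Cxcl9, an interferon-induced chemokine that attracts T cells, which went from 10.4 to 129 CPM in 6 and 8 cells.

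Several targets and antagonists of BMP signals were also higher in the progressed tumor. Of 11 BMP genes tested 6 were higher and 1 lower, beside 3.55% and 3.47% of all genes. The sum hardly differed (log2 ratio 0.07, median of the genes 1.32) because Fstl1 makes up more than any other member of it. Without the 5 cells described above the sum had a log2 ratio of -0.07. Id1 and Id2, transcriptional targets of BMP, went from 17.8 to 118 CPM (7 to 25 cells) and from 28.1 to 116 CPM (14 to 26 cells). By single cluster, Id1 was also higher in Stroma5 (log2 ratio 1.11) and was lower in Stroma4 (-0.30) and Stroma6 (-1.11). Its intervals in Stroma2 and Stroma8 held 0. Fst, encoding follistatin, a secreted antagonist of this family, went from 7.4 to 47.1 CPM. Gdf10, a ligand, was the lower one, at 111 and 34.5 CPM. Of 15 TGF-beta genes, 5 were higher, among them Inhba, Tgfbr1, Tgfb2 and Ltbp2, and 0 were lower. The sum of that list had a log2 ratio of 0.26 (median of the genes 0.42), below the 0.58 of the pooled other clusters (median 0.004). Inhba, a subunit of activin, went from 35.5 to 123 CPM in 11 and 23 cells.

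Contractile genes differed less. Acta2 and Tagln were past the fold among 8 tested, with log2 ratios of 1.24 (0.88 to 1.61) and 1.55 (1.24 to 1.87), and the sum had one of 0.53 in Stroma3 and 0.07 in the pooled other clusters. By single cluster the sum had 0.78 in Stroma4, 0.50 in Stroma8, 0.14 in Stroma5, -0.52 in Stroma2 and -0.82 in Stroma6, and in Stroma4 the ratios of Tagln (3.0) and Acta2 (1.95) were above those of Stroma3, at lower levels. Tagln was found in 33 of 120 untreated and 46 of 88 progressed cells, whereas Acta2 was found in 23 and 19. Among 20 matricellular genes 8 were higher and 1 lower. Thbs1, encoding thrombospondin-1, went from 176 to 566 CPM (37 to 49 cells), and it was also higher in the other clusters (log2 ratio 1.21). Tnc had a log2 ratio of 1.45 that became -0.47 without its highest cell in each tumor. Of 18 elastic fibre genes Mfap4, Ltbp1 and Ltbp2 were higher and Fbn2 was lower, with a sum that hardly differed (-0.02, median of the genes 0.10). Collagens hardly differed either. Of 19 tested 0 were higher and Col14a1 was lower (351 to 131 CPM), and the sum had a log2 ratio of 0.15.

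The 6 markers moved apart between the tumors. Crabp1, Dkk2 and Mfap4 were past the fold as higher in the progressed tumor (log2 ratios 3.74, 1.48 and 1.65) and Adamts18 as lower (-1.53), while Lrrc15 and Coch had log2 ratios of -0.39 and -0.80. The sum of the 6 had a log2 ratio of 0.95 (0.81 to 1.10).

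Transcripts known from neutrophils and acute inflammation were among the 12 genes furthest lower in the progressed tumor. S100a9 was at 341 CPM in 105 of 120 untreated cells, 189 CPM in 5 of 12 regressed cells and 0 in the 88 progressed cells, and S100a8 was in 103, 5 and 5 cells. Retnlg and Il1b went from 82.9 and 126 CPM to 0 and 1.81 CPM. The other Stroma clusters showed the same for S100a9 (306, 146 and 2.0 CPM), and so did other cells of the untreated tumor, with S100a9 in 92.0% of 25 NK/T cells, 60% of 15 cytolytic NK/T cells and 75% of 312 macrophages, while the 391 untreated neutrophils held 86950 CPM. In the progressed tumor S100a9 was in 0 of 17 NK/T cells, 0 of 24 cytolytic NK/T cells and 0.885% of 339 macrophages. What part free RNA had in these values was not tested. Saa3, an acute-phase protein, went from 56.3 CPM in 33 cells to 0 in Stroma3 and from 1410 to 2.76 CPM in the other clusters. Cxcl2, a chemokine for neutrophils, went from 207 to 9.07 CPM in Stroma3 (62 to 5 cells), and from 145 to 53.6 CPM in the other clusters.

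Other genes lower in the progressed tumor are not known as neutrophil transcripts. Cntfr, the receptor subunit for ciliary neurotrophic factor, was at 135 CPM in 48 of 120 untreated cells and at 5.44 CPM in 2 of 88 progressed cells, a log2 ratio of -4.63 (-6.93 to -3.04), with no UMI in the 12 regressed cells. It was at 20.1 and 5.63 CPM in the other clusters. Penk, encoding enkephalins, went from 412 to 99.7 CPM (log2 ratio -2.05, and -1.03 without its highest cell in each tumor), Fmod, the collagen-binding proteoglycan fibromodulin, from 167 to 39.9 CPM, and Adm, encoding adrenomedullin, from 198 to 27.2 CPM. Igfbp4, the most abundant member of its list, went from 8735 to 3478 CPM, and Cxcl12, the stromal chemokine for leukocytes, from 1838 to 772 CPM, with log2 ratios of -1.33 and -1.25. The pooled other clusters had -1.25 and -1.80, but single clusters had -0.33 to -0.79 for Igfbp4, and for Cxcl12 -1.59 in Stroma5 and -0.07 to -0.89 in the 4 others. Among 9 genes of the insulin-like growth factor axis 4 were higher (Igf1, Igfbp2, Igfbp3 and Igfbp6) and only Igfbp4 was lower, so the sum (-0.41) and the median of the genes (0.65) had opposite signs. Of 12 chemokines Cxcl9 and Cx3cl1 were higher and Cxcl1, Cxcl2 and Cxcl12 lower, and the ratio of Cx3cl1 (1.29) became -0.52 without cells that held another cell type's marker.

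**Figure D5:**
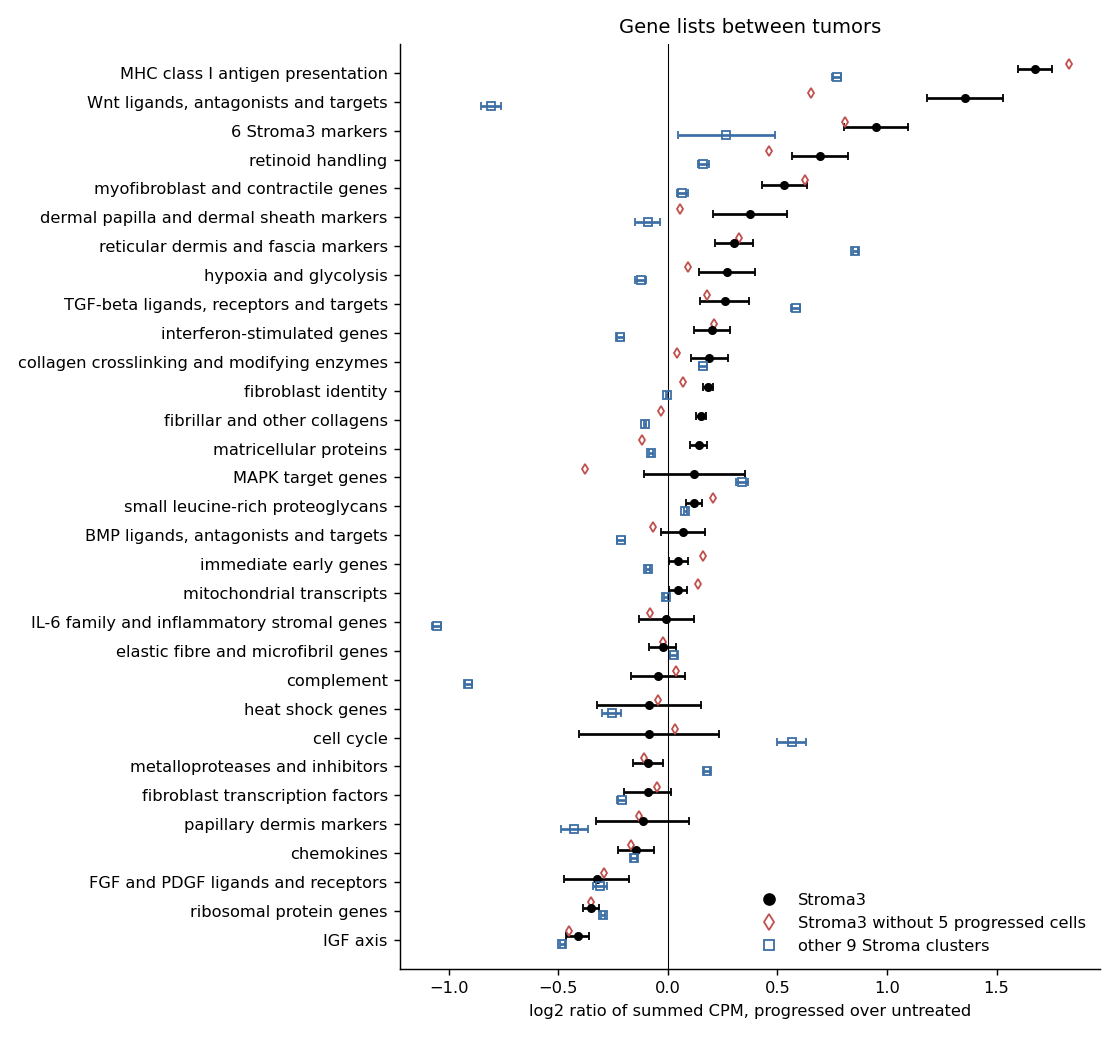
Log2 ratio of summed CPM, progressed over untreated, of each gene list in Stroma3 (black, exact 95% interval), in Stroma3 without the 5 progressed cells (red diamonds) and in the other 9 Stroma clusters (blue squares). MHC class I lies furthest to the right at 1.67, and the Wnt list moves from 1.36 to 0.65 without the 5 cells.

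MAPK target genes, cell cycle genes and heat shock genes held 0 genes past the fold between the tumors, of 7, 3 and 9 tested. The sum of the MAPK targets was 492 CPM untreated, 379 CPM regressed and 535 CPM progressed in Stroma3, while the other clusters stood at 1274, 643 and 1611 CPM.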

How the data were processed

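For each tumor the authors deposited a matrix of counts (UMIs per gene and cell, genes as Entrez IDs), and for all cells a table of cluster names, which hold no measurement. As the study describes, libraries came from the Chromium Single Cell 3' kit v2, reads were aligned to GRCm38 with GSNAP, unique sense reads over exons were counted, cells under 300 UMIs were removed, and Seurat 2.2.0 clustered the cells. The annotation release was not given in the sources used here.

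Entrez IDs were matched to symbols for 31049 of 36530 features. Of the rest, 2 are transgene sequences and 5479, with 3.74% of UMIs, had no symbol and stayed in the totals, and 45 features repeated another feature's counts (1.47% of UMIs). Per-cell totals given by the depositors were smaller than the matrix sums, which were 5.02% higher. No cell ID occurred in more than 1 tumor. No doublet caller was run, and the methods state no doublet step. No further filter was set on cells (the shallowest held 326 UMIs).

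Counts were summed per tumor and cluster and scaled to 1000000 UMIs (Python 3.11.15, scipy 1.17.1, pandas 2.3.3). Levels carry exact Poisson and ratios exact conditional binomial 95% intervals, which treat UMIs as independent and do not hold the spread between cells or tumors. Where a group had no UMI of a gene, 3 UMIs were used as the floor, so the ratio is a bound. Sums over 12 cells allow no firm ratio. Alternatives included edgeR 4.0.16 TMM scaling, thinning and other filters.

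Genes are named by rule: the 6 markers, up to 5 members past the fold of each of 40 lists, the 12 furthest higher and lower between tumors at 50 CPM or more, and the 20 higher and 10 lower against the other clusters. Genes outside it that are named for the check of cell types, with B2m, Psmb8, Psmb9, Tap1, Tap2, Tapbp, Psmb10 and list members without values, were chosen after their values were seen. Members and lists were chosen with earlier results of these data known. Some genes and alleles are not reported here.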

Additional observations from a re-analysis of the deposited data

Results flagged for a closer look

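Of the named genes, 13 were past the fold in one direction in Stroma3 and in the opposite direction in the pooled other Stroma clusters, progressed against untreated. The difference was not tested for any of them, and the other clusters are a different mixture of cells in each tumor. Higher in Stroma3 and lower elsewhere were C3 (log2 ratio 2.25, other clusters -2.44) and C2 (1.42, -1.14), both complement components, Gpx3 (2.26, -1.27), Hgf (1.71, or -0.16 after thinning, and -1.04), Igfbp3 (1.27, -1.60), Klf2 (1.14, -1.03) and Sfrp1 (2.13, -1.13). The same held for Rspo3 (4.49 against the floor of 3 UMIs, with a lower limit of 4.14, and -1.64), Sfrp2 (2.86, -3.51), Dio3 (4.61, -1.42), 1700086L19Rik (4.34, -1.27) and Tnc (1.45, -2.09), each of which had over 50% of its progressed UMIs in a single cell. Fbn2, a fibrillin, was lower in Stroma3 (-1.05) and higher elsewhere (1.38), with 42 of 120 untreated and 20 of 88 progressed cells holding it. C3 was in 8 untreated and 12 progressed cells, and C2 in 20 and 35, so these were less concentrated, and without the highest cell of each tumor their log2 ratios were 2.25 and 1.5.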

How the results depend on the processing

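No paired analysis was possible because each group is 1 tumor, and for the same reason no replicate could be left out. Of 1348 values recomputed for 158 results, 8 turned the sign of a ratio that was past the fold, for 5 genes higher in the progressed tumor. Sfrp2 (2.86) became -0.23 with every cell of equal weight and -1.16 with cells thinned to 1000 UMIs, and Hgf (1.71) became -0.16 after thinning. Without the deepest 5% of cells Tnc (1.45) became -0.27 and Cthrc1 (2.51) -0.96, and without its highest cell Tnc became -0.47. Without cells that held another cell type's marker Cthrc1 became -0.98 and Cx3cl1 (1.29) -0.52. Ratios not past the fold also changed sign, as given here and in the report. As a share of all cells of a tumor, Stroma3 was 2.93% untreated, 0.322% regressed and 1.81% progressed, and 3.15% of regressed Stroma cells without Stroma10. The log2 ratio of the marker sum against the other clusters (5.48, 6.04 and 6.17) was 5.73 untreated after thinning and 6.40 progressed without the deepest 5% of cells. Without cells that held another cell type's marker it was 5.85, 4.81 and 6.37, and with the clusters weighted equally 3.19, 6.64 and 5.11. The 266 genes higher in the progressed tumor became 72 after thinning (24 of them shared), 116 at a minimum of 50 UMIs and 403 at 1 UMI, the 260 lower ones 72 (26 shared) and 105, and the 268 higher than the other clusters 109 after thinning. Without cells that held another cell type's marker 297 were higher and 216 lower, but 118 and 83 of these were among the original calls. Between tumors, the marker sum (0.95) was 1.18 with cells of equal weight, 0.55 as the median of the genes and 0.47 without the most abundant gene, and its difference from the other clusters (0.68) was 1.92 with 5 clusters weighted equally. The elastic fibre sum (-0.02) was 0.049 without cells that held another marker, 0.10 as a median and 0.12 without its most abundant gene, and its difference (-0.05) was 0.021 with cells of equal weight, 0.082 without those cells and 0.084 with clusters weighted equally. The contractile sum (0.53) was 0.68, 0.67 and 0.39 with cells of equal weight, without those cells and as a median, and its difference (0.46) was 0.28 after thinning and 0.75 with clusters weighted equally. The MHC class I sum (1.67) was 1.80 without the deepest cells, 2.22 without cells that held another marker, 1.51 as a median, 1.81 without B2m and 1.83 without the 5 cells, and its difference (0.90) was 1.37 without those marker cells and 0.65 with clusters weighted equally. The causes were not tested. TMM and median-of-ratios scaling moved log2 ratios between tumors by 0.005 and 0.003 in Stroma3 and by 0.065 and 0.053 in the other clusters. Depth limits the 12 regressed cells, where 1 UMI is 27.1 CPM.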
